A study of Mus musculus with 33 samples.

Results

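The regions described here are the binding sites of the histone demethylase LSD1 that were listed in growing mouse myoblasts and had no LSD1 peak nearby in myotubes. They were chosen by comparing the LSD1 peak lists of both states: a myoblast peak on an autosome counted as lost when it lay more than 500 bp from every LSD1 peak of myotubes. Of 4419 autosomal LSD1 peaks of myoblasts, 2090 met this rule, which is 47.3% of them. A further 1999 (45.2%) overlapped a myotube LSD1 peak by at least 1 bp and are called kept, and 330 (7.47%) lay within 500 bp of one without touching it and are called near. The choice used measured values, so the number of lost sites and their distances from myotube LSD1 are a description and carry no test.

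The study mapped chromatin regulators by chromatin immunoprecipitation and sequencing (ChIP-seq) in C2C12, an established mouse myoblast line that fuses into multinucleate myotubes when serum is withdrawn. Myotubes came from confluent cultures held for 96 h (4 days) in medium with 2% horse serum, and myoblasts were harvested while growing, at low confluency, in medium with 10% fetal bovine serum. Chromatin of both states was sonicated to about 250 bp. In myotubes, peak lists were used for LSD1 (1 list), ING1 (a pooled list and 3 replicate lists) and Sin3A (pooled and 2 replicates), and in myoblasts for LSD1 (1 list), ING1 (pooled and 2), Menin (pooled and 2), MLL1 (pooled and 2), Wdr5 (pooled and 3) and MLL3 (1 list). The ING1 lists come from a stable line, made with a pBabe-puro retrovirus and selected with puromycin, that carried an ectopic Flag-tagged copy, and the tag was the target of the antibody. The other proteins were pulled down with antibodies against them in C2C12 cells with no transgene named. LSD1 has 1 list per state and MLL3 has 1 list, of myoblasts, so their peaks have no replicate check. The lists hold peak boundaries with no read counts, so sequencing depth and peak height are unknown, and weaker binding, binding in fewer cells of the culture and a peak missed by the caller cannot be told apart.

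LSD1 removes methyl groups from mono- and dimethylated H3K4, the lysine of histone H3 whose methylation marks promoters and enhancers, and it often works inside corepressor complexes that also hold histone deacetylases. In muscle precursors it has been linked to the activation of muscle genes during differentiation. Sin3A is the scaffold of such a deacetylase complex, and ING1 is one of its subunits, which reads trimethylated H3K4. MLL1 and MLL3 write methyl groups on H3K4. Menin tethers MLL1 to chromatin, and Wdr5 is a core subunit shared by the MLL complexes. Lost sites can therefore be described by which readers, corepressors and writers were listed at them in the same state, and by which readers and corepressors were listed there after differentiation.

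The myotube LSD1 list was the longer one, with 16504 peaks, against 4442 in myoblasts, and the rule used all of them. When that list was shortened to its widest peaks, as many as the myoblast list holds, the lost sites numbered 3542. Lost sites were somewhat narrower than kept ones, with a median width of 375 bp, against 432 bp for kept sites. The middle 50% of lost sites spanned 283 to 494 bp and the extremes were 54 and 1412 bp. Among the narrowest 10% of all myoblast LSD1 peaks 52.0% were lost, and among the widest 10% (707 to 1707 bp) 31.2% were lost.

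Lost sites lay over a wide range of distances from the LSD1 peaks of myotubes. The gap to the nearest one had a median of 29.0 kb. It was at most 1.69 kb for the nearest 10% of sites and at least 289.5 kb for the farthest 10%, and the extremes were 0.502 and 3354 kb. There were 444 lost sites (21.2%) with a gap of up to 5 kb, 845 (40.4%) with 5 to 50 kb, 686 (32.8%) with 50 to 500 kb and 115 (5.50%) with more than 500 kb. For the 444 sites with a gap of up to 5 kb, the nearest myotube LSD1 peaks were 399 different peaks, and 323 of those (81.0%) overlapped no myoblast LSD1 peak. New peaks were the rule in myotubes as a whole too, at 88.4% of all 16361 autosomal LSD1 peaks there. The 399 neighbouring peaks overlapped Sin3A in 40.4% of cases and ING1 of myotubes in 36.8%, against 25.3% and 21.9% of all autosomal LSD1 peaks of myotubes. These higher shares were not particular to peaks within 5 kb. The 1586 nearest myotube peaks of all lost sites had 46.2% for Sin3A and 41.7% for ING1 of myotubes. Nor were they particular to Sin3A and ING1 of myotubes. The 399 peaks also stood above all autosomal LSD1 peaks of myotubes for Menin (72.2% against 43.4%) and Wdr5 (47.6% against 28.8%). ING1 of myoblasts had 33.6% against 18.9%, and MLL1 20.3% against 11.0%. MLL3 differed least, with 27.8% against 25.6%.

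At the limit of the rule, the sites closest outside it were chr12:112616168-112616483, chr13:96387003-96387327 and chr8:109818314-109818517, with gaps of 502, 503 and 504 bp. The closest inside it were chr13:49436327-49436558, chr1:64783732-64784102 and chr10:127931366-127931797, with gaps of 496, 495 and 493 bp. Coordinates are those of the mouse build mm9, with starts counted from 1. Myotube ING1 overlapped 74.4% of the 133 lost sites within 500 bp outside the limit, and 70.9% of the 330 near sites. Sin3A overlapped 77.4% of these lost sites and 78.8% of the near ones.

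In the authors' pooled lists, most sites without LSD1 in myotubes were still listed for the corepressor subunits there. ING1 of myotubes overlapped 1529 of the 2090 lost sites, or 73.2% (exact binomial 95% interval 71.2 to 75.0), against 88.4% of kept sites. The difference was -15.2 percentage points (Newcombe 95% interval -17.6 to -12.9), and all 4419 sites together gave 79.9%. Sin3A overlapped 1621 lost sites, or 77.6%, against 93.6% of kept sites, with 84.9% over all sites. The difference for Sin3A was -16.0 points (-18.1 to -13.9). Both subunits were thus in the pooled lists at most lost sites and less often there than at kept sites. In the replicate lists this majority held for Sin3A, with a peak of at least 1 list at 69.7% of lost sites, against 89.9% of kept sites, and not for ING1, at 26.2% and 44.1%. These intervals, like all others here, cover the counting error over sites of 1 list and not the spread between cultures.

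ING1 and Sin3A were mostly listed together. Both overlapped 1303 lost sites (62.3%), against 84.9% of kept sites and 72.6% of all sites. Sin3A without ING1 was found at 318 lost sites (15.2%), against 8.70% of kept ones, and ING1 without Sin3A at 226 (10.8%), against 3.50%. Neither was listed at 243 lost sites, or 11.6% (10.3 to 13.1), against 58 kept sites (2.90%) and 7.83% of all sites. Lost sites were thus found more often than kept ones in each of the 3 states that lacked a subunit.

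In myoblasts, where LSD1 was listed at all these sites, ING1 was also less frequent at lost than at kept sites. It overlapped 1364 lost sites (65.3%) and 79.4% of kept sites, with 71.9% over all sites. The near sites, at 68.8%, stood closer to the lost than to the kept ones. The difference was -14.1 points (-16.8 to -11.4), close in size to that of ING1 in myotubes. ING1 was listed in both states at 1084 lost sites (51.9%), in myotubes alone at 445 (21.3%), in myoblasts alone at 280 (13.4%) and in neither at 281 (13.4%). In the replicate lists, which are shorter, the order of the single-state classes was the other way round. There 366 lost sites (17.5%) had a peak in some list of both states, 181 (8.66%) in myotube lists alone, 622 (29.8%) in myoblast lists alone and 921 (44.1%) in none. The shares of kept sites in the pooled lists were 72.7% in both states, 15.7% in myotubes alone, 6.65% in myoblasts alone and 4.95% in neither. In the replicate lists kept sites had 34.7%, 9.4%, 32.5% and 23.4% in the same order. The single-state shares of lost sites were thus above those of kept sites in the pooled lists and slightly below them in the replicate lists.

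ING1 of myoblasts split the lost sites. Of the 1364 lost sites with ING1 in myoblasts, 79.5% (77.2 to 81.6) had ING1 in myotubes and 83.5% had Sin3A there. Of the 726 lost sites without it, 61.3% had ING1 in myotubes and 66.4% had Sin3A. Kept sites were higher in each case, with ING1 in myotubes at 91.6% of those that had ING1 in myoblasts and at 76.0% (71.6 to 80.0) of those that had not. The interval for lost sites that held ING1 in myoblasts overlapped that for kept sites that did not.

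Of the H3K4 methylation machinery of myoblasts, Menin and Wdr5 were listed at most lost sites and the methyltransferases MLL1 and MLL3 at a minority. Their lists differ in length, with 70050 peaks for Menin, 59248 for Wdr5, 8892 for MLL1 and 218204 for MLL3. The part that list length has in these shares was not tested. Menin overlapped 1914 lost sites (91.6%), against 94.5% of kept sites, and Wdr5 overlapped 1820 (87.1%), against 91.8%. The differences were -2.97 points for Menin (-4.53 to -1.41) and -4.71 points for Wdr5 (-6.59 to -2.84). The lost shares stood close to those over all sites, 93.2% for Menin and 89.0% for Wdr5. MLL1 overlapped 731 lost sites (35.0%), against 40.3% of kept sites and 37.7% of all sites, a difference of -5.34 points (-8.30 to -2.37). MLL3 overlapped 406 lost sites (19.4%) and 19.5% of kept ones, with 19.6% over all sites, and the interval of its difference of -0.0839 points ran from -2.51 to 2.34. Among these 7 lists, myotube ING1, Sin3A and myoblast ING1 had the larger differences, and MLL3 had none that could be resolved with this number of sites.

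**Figure D1:**
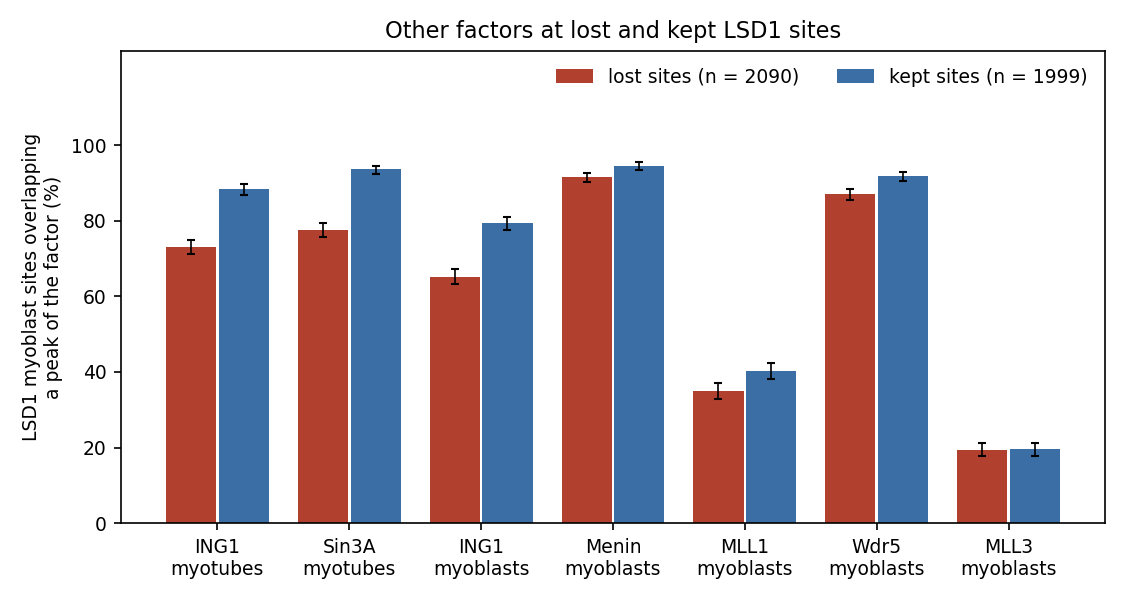
Percentage of lost and kept LSD1 sites that overlap a peak of each of the other 7 pooled or single lists, with error bars for the exact binomial 95% interval over sites. Lost sites stand lower for ING1 in myotubes (73.2% against 88.4%), Sin3A (77.6% against 93.6%) and ING1 in myoblasts (65.3% against 79.4%), and at the same level for MLL3 (19.4% against 19.5%).

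MLL1 nested within the longer list of Menin at lost and at kept sites, and less so within that of Wdr5. Menin, Wdr5 and MLL1 were all listed at 663 lost sites (31.7%), against 37.7% of kept sites and 34.7% of all sites. Menin and Wdr5 without MLL1 covered 1028 lost sites (49.2%), much the same share as of kept sites (50.0%). Menin without Wdr5 covered 223 lost sites (10.7%), against 6.85% of kept sites, and Wdr5 without Menin 129 (6.17%), against 4.10%. Neither Menin nor Wdr5 was listed at 47 lost sites (2.25%), against 1.35% of kept sites. MLL1 was listed at 37.9% of the lost sites that held Menin and at 3.41% of those that did not, and 99.2% of lost sites with MLL1 had Menin. Kept sites had the same nesting, with MLL1 at 42.1% and 9.17%, and with Menin at 98.8% of sites with MLL1. MLL3 had the opposite order, at 18.5% of lost sites with Menin and 29.5% of those without it, against 19.3% and 22.9% of kept sites. Only 176 lost and 109 kept sites had no Menin, so the shares without it rest on few sites. For Wdr5, MLL1 was listed at 36.6% of lost sites with it and 24.1% of those without it, against 41.25% and 29.9% of kept sites.

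Fewer of the other 7 lists, in which ING1 stands once for each state, had a peak at a lost site. At least 5 of the 7 lists overlapped 1163 lost sites (55.6%), against 75.7% of kept sites and 65.2% of all sites. The most frequent number was 5 lists for lost sites, with 665 of them, and also for kept sites, with 766. All 7 lists met at 50 lost and 105 kept sites, and none of the 7 at 11 lost and 2 kept sites. Lost sites thus spread further down, with 180 of them at 2 lists or fewer, against 42 kept sites.

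**Figure D2:**
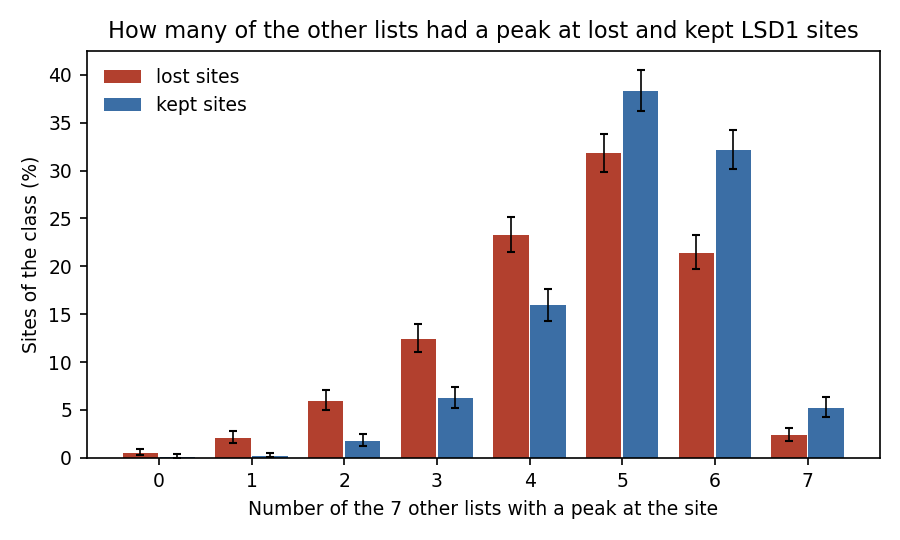
Percentage of lost and of kept LSD1 sites that overlap peaks of 0 to 7 of the other 7 lists, with error bars for the exact binomial 95% interval. Both classes are highest at 5 lists (665 lost and 766 kept sites), and lost sites exceed kept sites at 4 lists and fewer.

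The peaks of the other proteins at lost sites were long for their lists. Of lost sites that overlapped Menin, 92.1% lay wholly inside its peak, and the Menin peaks concerned had a median width of 2336 bp, against 2638 bp for those at kept sites and 658 bp for Menin's autosomal list as a whole. The Wdr5 peaks at lost sites had a median of 1454 bp, against 1672 bp at kept sites and 609 bp in the whole list. Of lost sites with Wdr5, 76.8% lay wholly inside its peak, and the shares for the other 5 lists ran from 52.1% for MLL1 to 59.2% for Sin3A. Sin3A peaks had 961.5 bp at lost sites and 1140 bp at kept sites, and myotube ING1 peaks had 782 and 962 bp. The part that the width of these peaks has in the shares above was not tested.

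Coverage around the site centres showed how local each overlap was. ING1 of myotubes covered 64.6% of the centres of lost sites, 14.0% of the positions 1 kb to either side and 0.981% of those 5 kb away. For kept sites the same protein reached 81.0%, 21.4% and 0.875%. Sin3A covered the centre of 69.5% of lost sites, against 87.9% of kept sites, and 1.68% of lost positions at 5 kb, against 1.30% of kept ones. Both myotube proteins thus had a narrow summit at lost sites, and at 5 kb lost and kept sites were at the same low level. Menin was broad and covered 90.1% of lost centres, 63.8% of positions at 1 kb and 16.1% at 5 kb, against 92.8%, 70.7% and 17.6% for kept sites. MLL3 had no summit of that kind, with 16.6% at the centre of lost sites and 14.3% at 5 kb, against 15.5% and 17.8% for kept sites.

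**Figure D3:**
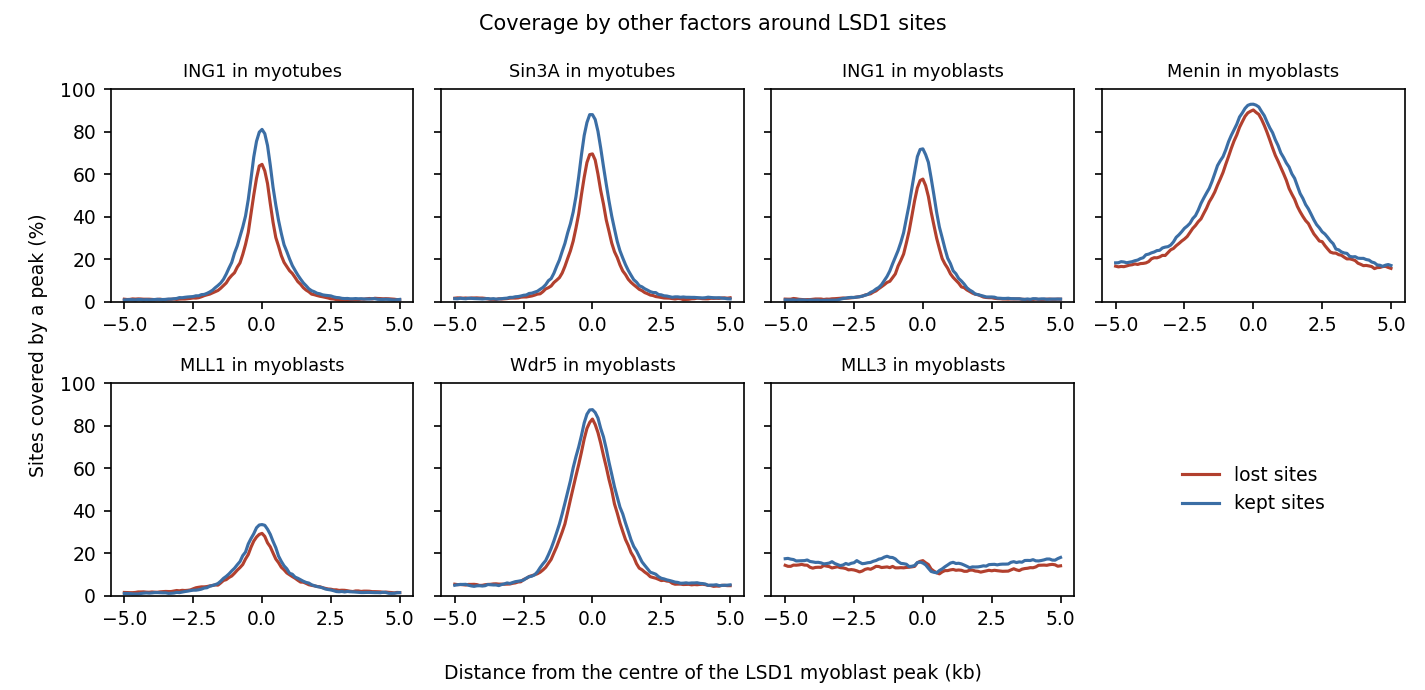
Percentage of lost and kept LSD1 sites covered by a peak of each protein, by distance from the site's centre in kb, within 5 kb on both sides. ING1 and Sin3A of myotubes form a narrow summit over lost sites (64.6% and 69.5% at the centre) that is lower than over kept sites (81.0% and 87.9%), Menin is broad, and MLL3 is nearly flat.

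The replicate lists gave the same direction. In all 14 of the 14 replicate lists the share of lost sites with a peak was below that of kept sites. For ING1 of myotubes the shares in replicates 1, 2 and 3 were 15.4%, 19.8% and 0.670% of lost sites, against 26.4%, 33.1% and 1.85% of kept sites. Replicate 3 of ING1 in myotubes holds 126 peaks in all, which limits what it can show. The mean difference of ING1 in myotubes was -8.50 ± 6.44 percentage points (SD, n = 3 lists), and the exact two-sided sign-flip test gave p = 0.25, the smallest p that 3 lists allow.

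Menin and Wdr5 had replicate differences of similar size. The Wdr5 lists overlapped 51.6%, 34.9% and 36.1% of lost sites, against 57.6%, 43.4% and 43.2% of kept sites. The mean difference was -7.20 ± 1.22 points (SD, n = 3 lists; exact sign-flip p = 0.25, again the smallest possible). Menin overlapped 75.5% and 71.4% of lost sites in its replicates, against 80.9% and 77.6% of kept sites, a mean of -5.82 ± 0.541 points (SD, n = 2). For Menin and Wdr5 the difference in every replicate list was thus larger than in the pooled list. With 2 lists the exact test cannot go below p = 0.5.

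The other groups each had 1 short list. The Sin3A replicates hold 9390 and 430 peaks and overlapped 69.6% and 4.26% of lost sites, against 89.8% and 5.30% of kept sites. The union of the Sin3A lists gave a difference of -20.2 points, and replicate 2 alone (without replicate 1) gave -1.04 points. ING1 of myoblasts had 428 and 5528 peaks and overlapped 3.01% and 46.4% of lost sites, against 7.15% and 66.4% of kept sites. Its difference was -20.0 points without replicate 1 and -4.14 points without replicate 2. MLL1 had 4131 and 466 peaks and overlapped 21.2% and 2.68% of lost sites, against 24.5% and 3.55% of kept sites, and its difference was -0.872 points without replicate 1. In each of these groups the size of the difference in points rested on the longer list. The lost share as a percentage of the kept share was 77.5% in the longer and 80.3% in the shorter Sin3A list. In the same order it was 69.9% and 42.1% for ING1 of myoblasts, and 86.65% and 75.4% for MLL1. Nothing in the labels states that replicates are separate cultures, so p-values over them measure a spread that may be technical.

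**Figure D4:**
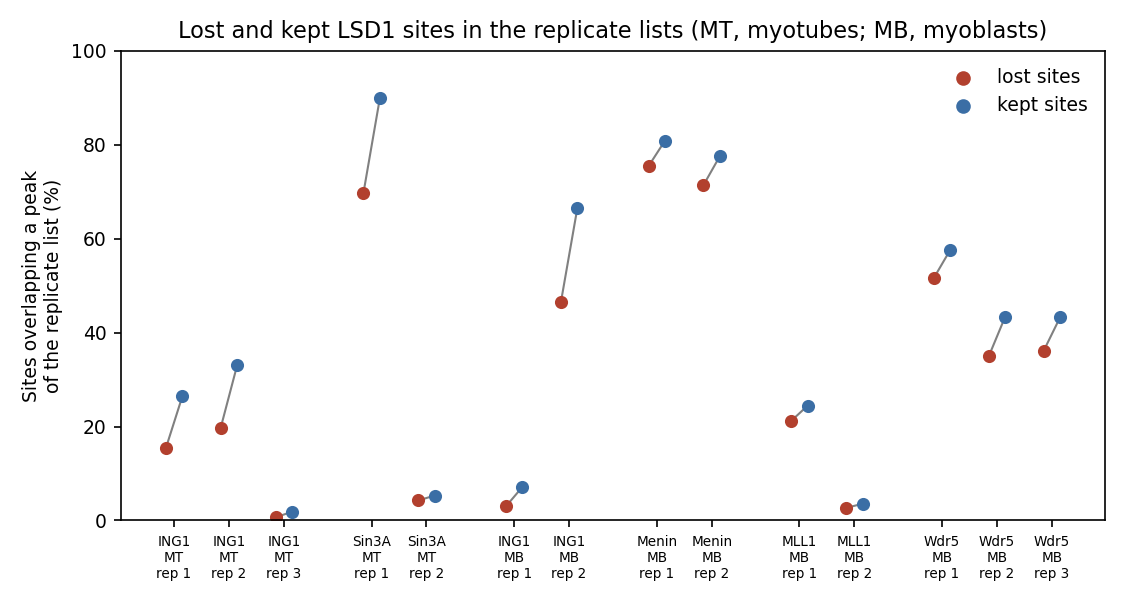
Percentage of lost and kept LSD1 sites that overlap a peak of each of the 14 replicate lists, with a line that joins the 2 classes in 1 list. Every line climbs from the lost to the kept sites, and the short lists (126 peaks of ING1 in myotubes replicate 3, 430 of Sin3A replicate 2) lie near 0.

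Overlap with a pooled list was often not carried by any replicate list. Of the 1529 lost sites with a pooled ING1 peak in myotubes, 544 (35.6%) also overlapped a peak of at least 1 ING1 replicate list, against 49.7% of the kept sites with such a peak. For ING1 of myoblasts the shares were 65.4% of lost and 79.1% of kept sites, and for Wdr5 71.1% and 77.8%. Sin3A was carried at 88.0% of lost sites and 95.1% of kept sites, and Menin at 90.9% and 93.7%. Menin was in both replicate lists at 1285 lost sites (61.5%), against 68.2% of kept sites, and Wdr5 was in all 3 at 423 (20.2%), against 24.3%. Presence in at least 2 replicate lists was less common for the others, at lost and at kept sites. It was 9.14% of lost and 16.5% of kept sites for ING1 of myotubes, and 4.16% and 5.25% for Sin3A. MLL1 had 2.39% of lost and 3.00% of kept sites, and ING1 of myoblasts had 2.15% and 6.40%. The 88.0% of Sin3A thus rested on its 1 long list, while Menin and Wdr5 were repeated between lists at many lost sites.

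ING1 is the protein with replicates in both states, which allows the one comparison of states at lost sites that the rule did not use. The measure was the share of lost sites with a peak as a percentage of the share of kept sites with a peak. Over the 5 ING1 lists this ratio was higher in longer lists, with 36.2% and 42.1% in the lists of 122 and 427 autosomal peaks and 69.9% in the list of 5496, so list length and state cannot be told apart in it. It averaged 51.4 ± 13.2% in myotubes (SD, n = 3 lists) and 56.0 ± 19.6% in myoblasts (SD, n = 2), a difference of -4.57 points. The two-sided exact permutation test over the 10 arrangements of the lists gave p = 0.8, and the smallest p this design allows is 0.2. The plain share of lost sites with an ING1 peak was 11.9 ± 10.0% in myotube lists and 24.7 ± 30.7% in myoblast lists (exact permutation p = 0.6). The share of a list's own peaks that lay at lost sites was 14.0 ± 2.28% in myotubes and 15.5 ± 2.35% in myoblasts (exact permutation p = 0.5). Adjusted over these 3 measures by the Benjamini-Hochberg method, each p was 0.8. A change of ING1 between states at the lost sites was not detectable with these lists, and the sign of the difference depended on which list was included. It was 9.29 points without myoblast replicate 2, 3.05 points without myotube replicate 3 and -18.4 points without myoblast replicate 1.

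Lost sites differed among themselves by how far they lay from myotube LSD1. ING1 of myotubes overlapped 77.3%, 76.8%, 67.9% and 61.7% of lost sites with gaps of up to 5, 5 to 50, 50 to 500 and over 500 kb. Sin3A overlapped 80.2%, 79.8%, 76.1% and 60.0% in the same order. MLL1 ran the other way, with 33.3%, 31.2%, 37.5% and 53.9%, and Menin lay between 90.3% and 95.7% in its pooled list. ING1 of myoblasts had 66.7%, 67.7%, 63.1% and 54.8%, so the lower shares at isolated sites were seen for ING1 in both states as well as for Sin3A.

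These classes are cut on the distance that chose the sites, so the values are a description with no test. Between sites with gaps over 500 kb and those with gaps of up to 5 kb, the pooled lists differed by -15.5 points for ING1 of myotubes, -20.2 for Sin3A, -11.9 for ING1 of myoblasts and 20.6 for MLL1. The 3 ING1 replicates of myotubes gave -4.75, -12.6 and -1.58 points, and those of myoblasts gave -0.995 and -15.2. Sin3A gave -24.3 points in replicate 1 and -0.770 in the short replicate 2, and MLL1 gave 13.6 and 2.32. The direction was thus the same in each replicate list of these proteins, and the short lists had small differences. Menin gave 2.86 points in the pooled list and 9.74 and 6.35 points in its replicates, the same direction as MLL1. Wdr5 gave -6.94 points in the pooled list and 4.91, -1.29 and -5.41 points in its replicates, which differ in sign.

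**Figure D5:**
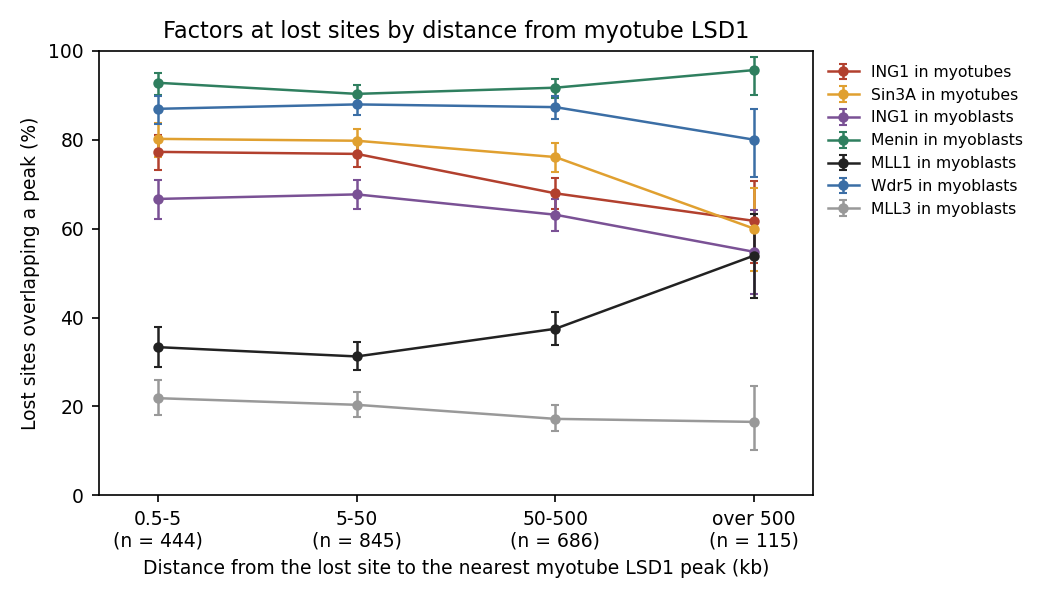
Percentage of lost LSD1 sites that overlap a peak of each other protein, in 4 classes of the gap to the nearest myotube LSD1 peak (444, 845, 686 and 115 sites), with exact binomial 95% intervals. With growing gap, Sin3A goes down to 60.0% and ING1 of myotubes to 61.7%, while MLL1 goes up to 53.9%.

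Neighbouring LSD1 sites mostly shared their fate. Joining myoblast LSD1 peaks that lay within 5 kb of each other gave 3758 loci, of which 3187 held a single peak and 571 held more. Of the single peaks 1579 were lost (49.5%). Of the 571 loci with several peaks, 194 (34.0%) lost all of them, 281 (49.2%) lost none and 96 (16.8%) lost some. These mixed loci held 103 lost sites, or 4.93% of all lost sites, and no locus held more than 4. The rule itself ties neighbours together, since 1 myotube peak can keep several sites. Of 1510 Sin3A peaks that covered a lost site, 32 (2.12%) also covered a site that was kept or near, and of 1730 Menin peaks 60 (3.47%) did so. Peaks over a single LSD1 site could not do so and were not set apart, so these shares say nothing about a shared fate.

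The lower shares of ING1 and Sin3A at lost sites were also seen within classes of width and on most chromosomes. Within 10 classes of width the difference was -13.9 points for ING1 of myotubes, -15.3 for Sin3A and -12.4 for ING1 of myoblasts, each lower at lost sites in 10 of 10 classes. Sin3A and ING1 of myoblasts were lower at lost sites on 19 of 19 autosomes, ING1 of myotubes on 18, MLL1 and Wdr5 on 15, Menin on 13 and MLL3 on 7. MLL3 changed sign within width classes, at 1.26 points. The share of LSD1 sites that were lost ranged over chromosomes from 37.7% on chromosome 10 (95 of 252, interval 31.7 to 44.0) to 60.7% on chromosome 18 (74 of 122, interval 51.4 to 69.4).

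Single sites show the range of states behind these shares. The widest lost site, chr8:87493043-87494454 (1412 bp), lay 5.16 kb from myotube LSD1 and was covered in full by Menin and MLL1 peaks of myoblasts. Pooled peaks of myotube ING1 covered 95.9% of its length and those of myoblast ING1 86.2%, while no pooled Sin3A or Wdr5 peak touched it. The replicate lists differed, with no peak of myotube ING1 or MLL1 on this site and a peak in 1 Wdr5 list. The next widest, chr9:123021631-123022962 (1332 bp), lay 146 kb from myotube LSD1 and overlapped 6 of the 7 lists, all but MLL3. The others of the 5 widest were chr11:69394334-69395583 (1250 bp, 5 lists), chr2:90585751-90586989 (1239 bp, 6 lists) and chr15:78757302-78758511 (1210 bp, all 7 lists). All 5 lay wholly inside a Menin peak.

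The sites most remote from myotube LSD1 still held other proteins. The site chr12:13275965-13276695 (731 bp) was 3354 kb from the nearest one, and Sin3A, Menin and Wdr5 each covered its whole length. The site chr13:88961153-88961884 (732 bp, 2640 kb) held ING1 of myoblasts over 98.5% of its length and Menin over all of it, with no ING1 or Sin3A in myotubes. The site chr7:39055493-39055883 (391 bp, 2468 kb) overlapped Menin, Wdr5 and MLL3 and no ING1 or Sin3A.

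A single lost site, chr3:36470520-36470875 (356 bp), overlapped ING1 in all 5 replicate lists of both states. It lay 95.9 kb from myotube LSD1, was in both Sin3A replicate lists and was covered in full by the pooled peaks of all lists but MLL3. Sites of the opposite kind, with ING1 in myoblasts and no ING1 or Sin3A within 500 bp in myotubes in any list, numbered 66 (3.16% of lost sites), against 15 kept sites (0.750%) and 1.86% of all sites. The 3 widest were chr3:93324786-93325911 (1126 bp), chr6:30123084-30124053 (970 bp) and the chromosome 13 site above. At the first of these a pooled ING1 peak covered 13.1% of the site and no ING1 replicate list had a peak on it. At chr6:30123084-30124053 the nearest pooled peaks of myotubes were 124302 bp away for ING1 and 62698 bp for Sin3A, while Menin and Wdr5 of myoblasts covered the whole site.

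At the other ends of the range, 7 lost sites (0.335%), against 1 kept site (0.0500%), lay more than 500 bp from every peak of the other 7 lists. The widest of them was chr4:148892454-148893007 (554 bp), whose nearest peak of another protein was Menin's, 1809 bp away, and 1 Menin replicate list had a peak on it. The next were a site of 493 bp on chromosome 18 and chr4:115511727-115512196 (470 bp), which overlapped no replicate list. Of the 50 lost sites in all 7 lists, the widest were the chromosome 15 site above, chr13:5860928-5862058 (1131 bp) and chr17:36004201-36005277 (1077 bp). They lay 1.57, 1.32 and 11.5 kb from myotube LSD1. No gene names are given for these sites, because no annotation of the build of the lists was used here.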

How the data were processed

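The deposited lists hold the left and right boundaries of ChIP-seq peaks (unit: other, base positions in mm9), with no score or read count that could be tested. Per the submitters' processing notes, Bowtie 0.12.9, SAMtools 0.1.19 and bedtools 2.17.0 were used with builds mm9 and NCBIM37. For the caller of the peaks, its cutoff and the pooling of replicates, nothing is stated (not given in the sources used here). Left ends were read as counted from 0. Sin3A was taken as mapped in myotubes, as its sample labels say (the series' design text says myoblasts), and the MLL1 samples were taken from title and antibody, since their source label names Menin.

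Each myoblast LSD1 peak was classed by its gap to the nearest myotube LSD1 peak (lost over 500 bp, kept at 1 bp overlap or more), with autosomes only. Overlap of 1 bp or more with each of the other 7 pooled or single lists and 14 replicate lists was counted in Python 3.11.15 with numpy 2.4.6, pandas 2.3.3 and scipy 1.17.1. Shares have exact (Clopper-Pearson) 95% intervals and their differences Newcombe intervals. Peaks of 1 list are not replicates, so tests ran over replicate lists alone, as exact permutation or sign-flip tests. The counting steps were tested on simulated lists. Replicate lists shared at most 1 identical peak within a group, so none was treated as a duplicate.

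The sites named are the 5 widest, the 3 farthest from myotube LSD1, and the 3 widest in each of 4 combinations of the other lists: ING1 in every replicate list, ING1 in myoblasts without ING1 or Sin3A in myotubes, none of the 7 lists within 500 bp, and all 7 lists. The 3 sites on either side of the limit are named too. The members, classes and lists were chosen with earlier results of these data known. Alternatives varied the overlap, the distance, the width of peaks, the pooled list and the replicates. The 10 input and 6 RNA samples were not analysed here. Reads per sample are unknown, so precision rests on the number of sites.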

Additional observations from a re-analysis of the deposited data

Results flagged for a closer look

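Chromosome X was left out of the rule, and LSD1 sites were lost there too. Of 23 myoblast LSD1 peaks on chromosome X, 18 lay more than 500 bp from every myotube LSD1 peak, or 78.3% (exact binomial 95% interval 56.3 to 92.5), and 3 overlapped one. Over the autosomes 47.3% were lost, and the highest single autosome, chromosome 18, had 60.7%. The value stands out because it comes from peaks outside the main measurement. It rests on 23 peaks of 1 list per state, and no test of it was made.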

How the results depend on the processing

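Differences are in percentage points, lost minus kept. For the 6 lists other than MLL3 the difference stayed negative in all 50 alternatives. The number of lost sites was 936 among the wider 50% of myoblast peaks and 3542 with the shortened myotube list. Counting peaks within 500 bp as shared gave -12.0 for ING1 in myotubes, -11.9 for Sin3A and -2.86 for MLL3. Requiring 50% overlap gave -18.4 for Sin3A, and the wider 50% of peaks gave -12.3. Replacing the pooled list with the union of replicate lists gave -17.9 for ING1 in myotubes, -20.2 for Sin3A, -19.9 for ING1 in myoblasts, -4.89 for Menin and -8.91 for Wdr5. Leaving out 1 replicate list at a time gave -17.5 to -11.8 for ING1 in myotubes, -20.2 to -1.04 for Sin3A (without replicate 2 and without replicate 1), -20.0 to -4.14 for ING1 in myoblasts (without replicate 1 and without replicate 2), -6.20 to -5.44 for Menin, -3.27 to -0.872 for MLL1 (without replicate 2 and without replicate 1) and -10.1 to -7.52 for Wdr5. The comparison of ING1 replicate lists between states turned to 0.344 with 50% overlap and ranged from -18.4 without myoblast replicate 1 to 9.29 without myoblast replicate 2. With a replicate block over replicate numbers 1 and 2, which the labels do not state to be paired, it was 3.05 (exact sign-flip p = 1). The causes of these changes were not tested. With no peak scores or depth, no stricter threshold of the peak caller could be tried, and peak width stood in for it. LSD1 has 1 list per state, so no site's loss was checked in a replicate.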

Other observations

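Coverage around LSD1 sites was not symmetric along the genome's coordinates, for MLL3 in myoblasts and for every other list. Peaks of MLL3 in myoblasts covered 13.5% of the positions 0.5 kb below the centre of lost sites and 10.9% of those 0.5 kb above it, against 13.8% and 10.9% around kept sites. The sites have no strand in the lists, and no explanation was tested.

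Myotube LSD1 was also listed 7 times on the mitochondrial chromosome, where the myoblast list had 0 peaks.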
